A study of Mus musculus with 2 samples.

Results

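Processed pseudogenes are copies of messenger RNAs that were reverse-transcribed and inserted back into the genome. A new copy carries the exons of its source gene joined without introns, usually has no promoter of its own, and gathers base changes with time. A young copy of an abundant messenger RNA can therefore match the coding gene along its whole length, and a sequencing read from such a stretch fits both places. The genes described here are those that GENCODE M21 annotates as processed pseudogenes. They were chosen by their level: a mean TPM (transcript level scaled for length, with the same total in every library) of at least 5 over the libraries and at least 100 expected counts summed over the libraries in the first of the deposited quantifications. That rule kept 184 of 9941 processed pseudogenes, in tables that hold 55536 annotated genes. The rule used the first quantification, so the level of these pseudogenes there is a description and supports nothing.

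The samples were 2 libraries of total RNA from gastrocnemius, the large calf muscle, of adult female mice 8 to 10 months old from a cross of 5xFAD with CAST. 5xFAD is a transgenic line with human genes carrying familial Alzheimer's disease mutations, and CAST is a strain derived from wild mice. Both libraries belong to 1 group, were made from 300 ng RNA with a strand-specific kit and ERCC spike-ins, and carry biological replicate numbers 1 and 2 with 1 donor identifier, so the labels do not settle whether they come from separate animals. No label names a control group, and the SD values below measure only the spread between these libraries, which may be technical. The human transgenes are outside the annotation, and reads from CAST alleles were counted against the mm10 reference, an effect that was not tested. The libraries held 35594289 and 34541905 expected counts over all entries, including 170582 and 174278 on spike-ins. All 8 markers of muscle fibres were above 1 TPM with sums of 71512 and 81944 TPM, against 0.37 and 0.42 TPM for 5 lymphocyte markers. Markers of other cell types lay between these. Their sums were 230 and 211 TPM for adipocytes, 139 and 159 for fibroblasts and 38.5 and 43.7 for endothelium. Schwann cell markers summed to 26.3 and 25.7 TPM and macrophage markers to 21.1 and 19.8.

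Each library was quantified by 2 methods, which the deposited notes describe only by their inputs. The first quantifier worked from an alignment to the transcriptome and gave expected counts per gene. The second quantifier worked straight from the reads and gave estimated counts per transcript, summed here per gene. Both gave counts that need not be whole, as methods do that share out reads fitting several transcripts, so a pseudogene's value is an estimate and not a tally of reads that could come from nowhere else. For each pseudogene the coding gene with the best BLASTN alignment (highest bit score, at least 50% of the pseudogene covered) was taken as its best-aligned gene. All 184 had one, and they fell on 147 coding genes. For 6 pseudogenes more than 1 coding gene had the same score, and a few best-aligned genes, such as Gm10053 and Ftl1-ps1, are themselves copies annotated as coding, so the best-aligned gene is not in every case the source. Where the symbol itself names a source (52 pseudogenes of the form X-psN), the alignment gave that gene in all 52.

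The most abundant of the 184, Gm12338, shows how close these copies are. It lies at chr11:75599763-75599954 (mm10, minus strand), and its 192 bases are the whole coding sequence of Cox7c, a small subunit of cytochrome c oxidase, with 0 differing bases, so a single line gives both.
Gm12338: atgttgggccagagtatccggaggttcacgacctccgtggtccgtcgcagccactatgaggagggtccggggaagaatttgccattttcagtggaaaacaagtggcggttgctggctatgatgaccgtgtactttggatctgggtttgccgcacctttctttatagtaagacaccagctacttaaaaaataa

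Tma7-ps, at chr1:171711088-171711282 (plus strand), is a copy of the coding sequence of Tma7, a ribosome-associated protein. It differs at 2 of 195 bases, which are in capitals in the pair below.
Tma7-ps: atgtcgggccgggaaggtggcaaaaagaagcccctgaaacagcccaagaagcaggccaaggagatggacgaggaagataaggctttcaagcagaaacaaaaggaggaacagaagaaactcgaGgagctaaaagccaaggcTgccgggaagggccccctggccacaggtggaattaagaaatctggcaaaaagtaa
Tma7: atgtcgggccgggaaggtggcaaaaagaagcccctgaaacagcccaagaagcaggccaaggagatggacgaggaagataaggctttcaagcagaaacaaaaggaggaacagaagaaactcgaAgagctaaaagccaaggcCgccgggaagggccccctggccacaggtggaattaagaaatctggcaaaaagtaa

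Some copies are copies of each other as well. Rpl35a-ps2, Rpl35a-ps3, Rpl35a-ps4, Rpl35a-ps6 and Gm10243 have the same 333 bases at 5 loci and differ at 1 base from the coding sequence of Rpl35a, which encodes a large-subunit ribosomal protein. The stretch around that base is shown for Rpl35a-ps2 (chr1:181242121-181242210, minus strand), with the differing base in capitals.
Rpl35a-ps2: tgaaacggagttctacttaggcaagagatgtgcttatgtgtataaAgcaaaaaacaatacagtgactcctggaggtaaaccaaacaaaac
Rpl35a: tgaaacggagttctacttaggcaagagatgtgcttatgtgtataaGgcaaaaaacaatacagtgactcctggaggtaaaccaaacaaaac

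Single-base differences also set apart Gm4459, a copy of the mitochondrial acyl carrier protein gene Ndufab1, and Gm8430, a copy of Rps27a, which encodes ubiquitin fused to a ribosomal protein. Both return below because their levels moved between libraries or methods. Coding bases 92 to 181 of Ndufab1 are shown with chr7:139659975-139660064 (minus strand), and coding bases 26 to 115 of Rps27a with chr6:122456929-122457018 (plus strand), the differing base again in capitals.
Gm4459: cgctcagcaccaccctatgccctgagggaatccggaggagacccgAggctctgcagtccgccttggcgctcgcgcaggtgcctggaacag
Ndufab1: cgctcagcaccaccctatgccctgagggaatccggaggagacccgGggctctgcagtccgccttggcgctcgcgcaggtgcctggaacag
Gm8430: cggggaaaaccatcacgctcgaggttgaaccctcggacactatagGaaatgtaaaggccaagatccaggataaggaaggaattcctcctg
Rps27a: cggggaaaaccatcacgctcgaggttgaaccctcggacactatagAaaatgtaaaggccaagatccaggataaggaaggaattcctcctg

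Near-identity was the rule. The median identity of the 184 to their best-aligned gene was 99.6% and the lowest 71.4%, 136 were at 99% or above, and 43 were found letter for letter inside a transcript of that gene. The other 9422 processed pseudogenes with an alignment had a median identity of 88.4%. A related measure is the share of a pseudogene's 31-base words that occur in no other annotated gene, 31 bases being a usual word length of methods that work straight from reads. The median share was 6.74% for the 184 and 86.4% for 9754 other processed pseudogenes. No unique word existed for 59 of the 184 (32.1%), against 317 of the others (3.25%). The pseudogenes were short, with a median length of 504.5 bases and a range of 151 to 2406, and lay on 20 chromosomes, with the most, 19, on chromosome 6.

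A few copies held much of the members' TPM in the first quantifier, and less of their counts. The 184 summed to 7739 TPM in library 1 and 8273 TPM in library 2, which was 0.780% and 0.835% of the TPM of all annotated genes (mean 0.807% ± 0.0388, SD, n = 2). Of expected counts, which are not scaled for length, they held 0.288% ± 0.00921 (SD, n = 2). The 12 highest took 38.0% of the members' TPM. The 10 highest took 35.1% of the TPM, 22.65% of the expected counts and 7.72% of the second quantifier's estimated counts, and the highest, Gm12338, has an effective length of only 92 bases in the first quantifier. Of all 184, 17 pseudogenes were at 100 TPM or more, 122 between 10 and 100, and 45 below 10. The threshold cut through a continuum, with Gm5075 (5.04 TPM), Gm9761 (5.08) and Gm21596 (5.28) just inside and Gm4535 (4.99), Gm7964 (4.93) and Gm14117 (4.88) just outside.

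The 12 highest copies came mainly from genes of the ribosome and of oxidative phosphorylation, with Tpt1-ps3 and Gm12481 as the exceptions. Gm12338, the Cox7c copy, stood at 706 and 796 TPM in libraries 1 and 2 by the first quantifier, while Cox7c itself stood at 277 and 303 TPM. By the second quantifier Gm12338 was listed at 0 in both libraries and Cox7c at 473 and 546 TPM. The libraries sat close together and the methods far apart. In counts, which need no length, the first quantifier gave the copy 1974 and 1925 and Cox7c 3567 and 3391. The second gave Cox7c 5551 and 5450. Cox7c with all 6 of its annotated processed pseudogenes therefore held 5541 and 5316 counts by the first method and 5551 and 5450 by the second.

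Tpt1-ps3 copies Tpt1, the translationally controlled tumour protein, without a differing base over its 519 bases (chr6:99877816-99878334). It was at 365 and 384 TPM in the first quantifier and 234 and 254 TPM in the second, below Tpt1 (1549 and 1656 TPM, first) in both libraries. Rps23-ps1 and Rpl28-ps1 are exact copies of ribosomal protein genes. Rps23-ps1 (chr3:37714740-37715164) was at 289 and 298 TPM in the first quantifier and 165 and 146 in the second, and Rps23 at 76.6 and 84.0 TPM, then 171 and 197. The copy was the higher of the pair by the first method and the lower by the second. Rpl28-ps1 (chr1:128038569-128038982) did the same. It was at 264 and 278 TPM against 208 and 229 TPM for Rpl28 in the first quantifier. In the second it was at 121 and 148 TPM against 374 and 397 TPM.

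Gm12481, an exact copy within Serf2 (a small protein gene), was at 195 and 223 TPM by the first quantifier and listed at 0 by the second in both libraries. Rpl31-ps8, an exact copy within Rpl31, did the same, with 161 and 183 TPM and then 0. Neither library departed from this. Rps2-ps13, on the X chromosome, has 7 differing bases against Rps2, which encodes a small-subunit ribosomal protein. It kept its level: 207 and 210 TPM in the first quantifier and 178 and 188 TPM in the second. Ndufb4c, a copy of a complex I subunit gene, was at 186 and 207 TPM and then 50.7 and 43.5 TPM. Gm10221, a copy of the ATP synthase subunit gene Atp5l, was at 208 and 155 TPM in the first quantifier and at 43.2 TPM in library 1 and 0 in library 2 in the second. Here the libraries themselves disagreed, in the same direction by both methods. The remaining copies of the 12 are ribosomal: Gm7536 (Rpl27a) at 155 and 148 TPM then 111 and 110, Rpl36a-ps2 (Rpl36a) at 115 and 127 then 55.4 and 48.6, and Gm15710 (Rpl13) at 119 and 113 then 52.5 and 52.7.

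**Figure D1:**
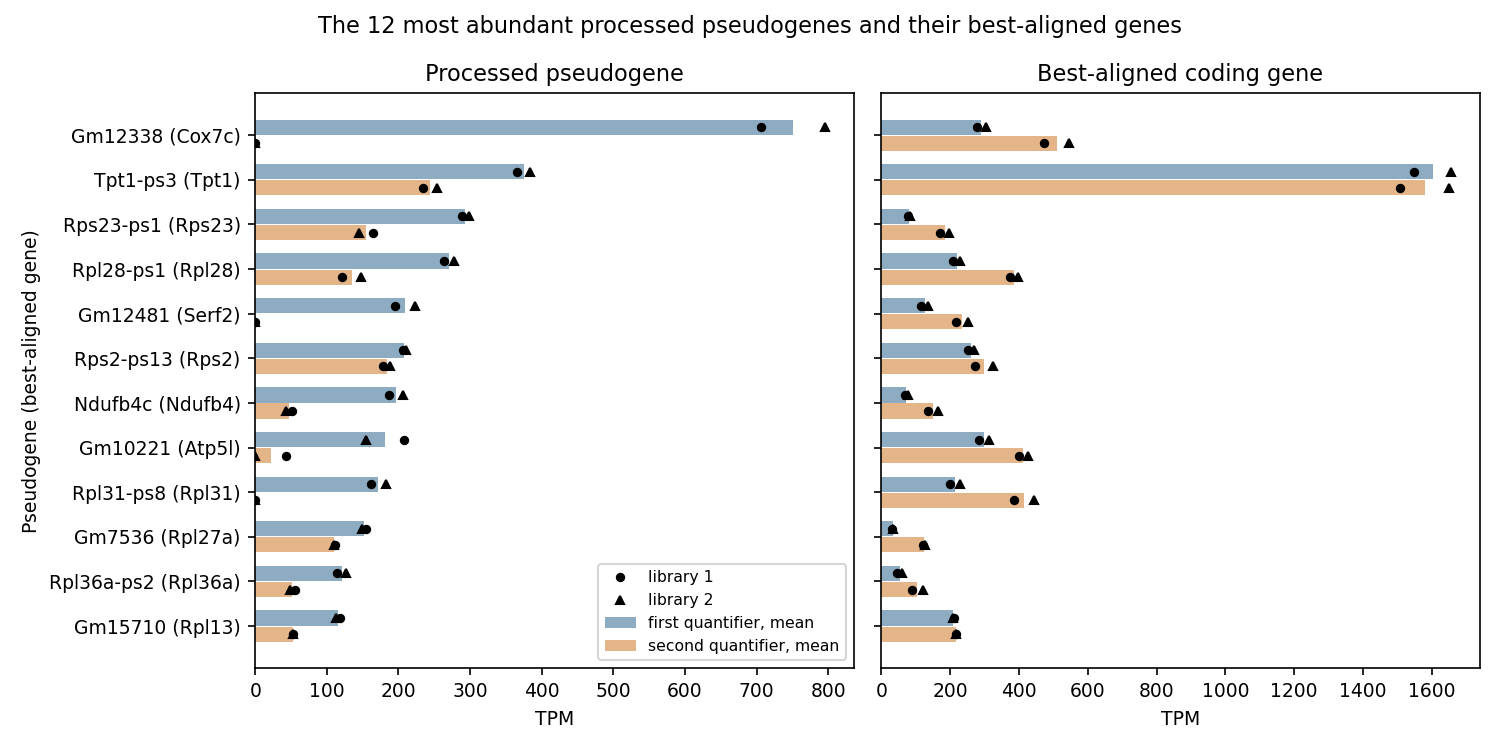
TPM (horizontal axis) of the 12 most abundant processed pseudogenes (left) and of the coding gene each aligned best to (right), by the first (blue) and second (orange) quantifier; bars are means of 2 libraries and points single libraries. Gm12338, Gm12481 and Rpl31-ps8 have no visible orange bar because the second quantifier listed them at 0, while their coding genes are higher in orange than in blue.

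The typical pseudogene was lower in the second quantifier, although the summed counts were not. The 184 together held 104443 and 96854 expected counts in the first quantifier (0.288% of all) and 131806 and 126490 estimated counts in the second (0.346%), of which Gm7336 alone, described below, had 66839 and 64767. The share at least 2-fold lower was 43.5% (80 pseudogenes), with 0.01 TPM added to both values. Among all 6685 genes past the same thresholds the share was 2.74%, a number that includes these 80, and among 6307 protein-coding genes past them it was 0.444%. Going the other way, 8 of the 184 were at least 2-fold higher in the second quantifier, against 0.553% of all genes past the thresholds. The median log2 ratio of the second over the first quantifier was -0.60 for the pseudogenes (-0.56 in library 1 and -0.62 in library 2, SD 0.0441, n = 2) and -0.05 for protein-coding genes. The same side was seen in each library separately for 77 of the lower and all 8 of the higher ones. In the second quantifier 43 were at 0 in both libraries and 56 under 1 TPM on the mean, while 109 also passed both thresholds there; the 43 lie below the median whatever value is put for their 0.

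Because the rule picked genes that were high in the first quantifier, some fall is built into this comparison. Choosing instead by the second quantifier, with the same thresholds, gave 124 processed pseudogenes, of which 109 were shared. Of these 124, 19 (15.3%) were at least 2-fold lower in the first quantifier, and for 6279 protein-coding genes chosen that way the share was 0.812%. The median log2 ratio of the second over the first was then -0.07. The size of the shift thus depended on which quantifier did the choosing, and both choices left pseudogenes with larger shares of discordant values than coding genes.

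**Figure D2:**
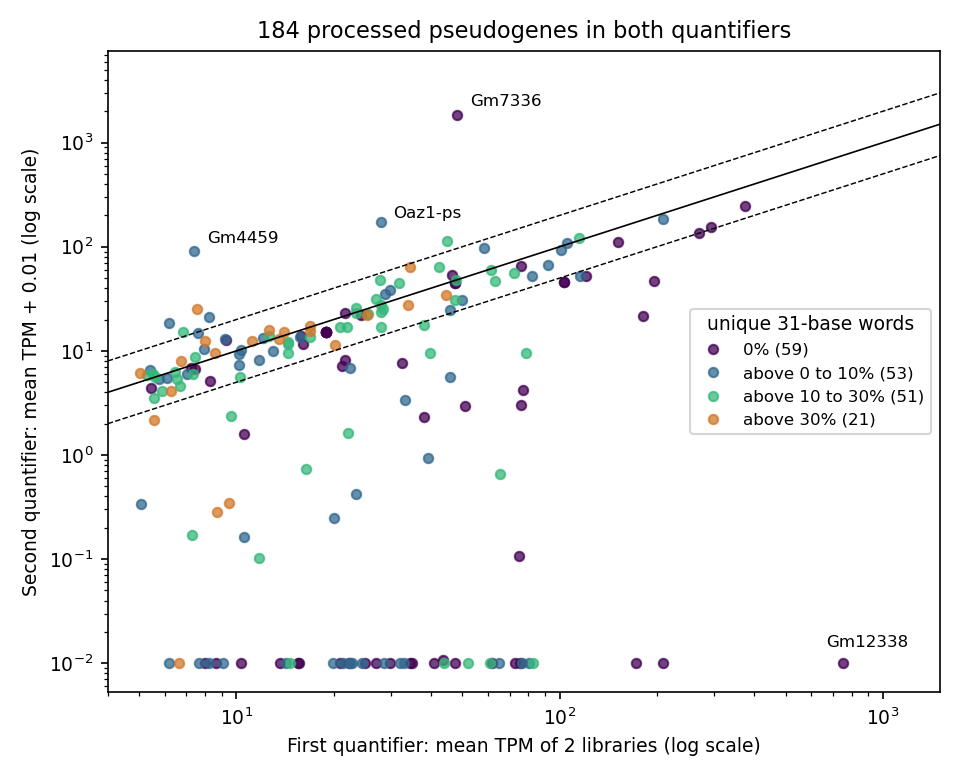
Mean TPM of each of the 184 pseudogenes in the first quantifier (horizontal, log scale) against the second plus 0.01 (vertical, log scale), coloured by the share of their 31-base words found in no other gene; the solid line marks equal values and the dashed lines 2-fold. A row of points at the bottom holds the pseudogenes at or near 0 in the second quantifier, and Gm7336 lies far above the line.

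Uniqueness of sequence went with this difference. Of the 59 pseudogenes without a unique 31-base word, 37 were at least 2-fold lower in the second quantifier (median log2 ratio -2.11). Of 53 with a share above 0 and up to 10%, 25 were lower (median -0.68), and of 51 with a share above 10% and up to 30%, 14 were (median -0.31). Of 21 above 30%, 4 were (median -0.05). The median therefore lay nearer to 0 the more of a pseudogene was its own. The bands were set after the values were seen. Across the 184, Spearman's rho between the unique share and the log2 ratio was 0.34, a description over genes that share libraries and, in many cases, source genes. Length differed between the bands too, with medians of 411 bases in the band without unique words and 793 bases in the band above 30%. So did the level in the first quantifier, on which the rule chose, with medians of 34.4 TPM and 11.2 TPM in the same bands. The part of length and of level in the result was not tested. All 11 pseudogenes shorter than 230 bases were at least 2-fold lower in the second quantifier.

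The authors' own within-library uncertainty was larger in the bands with fewer unique words. The first quantifier's tables give a posterior mean and SD of each count. The SD, as a percentage of the mean and averaged over the libraries, had a median of 6.37% over the 184 and 0% over protein-coding genes past the same thresholds. It was above 10% for 66 of the 184 (35.9%) and for 0.603% of the protein-coding genes. From the band without unique words to the band above 30% the medians were 14.6%, 8.99%, 4.68% and 2.34%. The 5 identical Rpl35a copies show the limit: each was given the same 18.1 TPM in library 1 and 19.9 TPM in library 2, with a posterior SD of 78.0% of the mean (Gm10243) up to 85.9% (Rpl35a-ps3). Their sequences are the same over the annotated length, so reads within it cannot separate the loci. Gm13370 and Gm10240 (Rpl21 copies, 47.5 TPM each) and Gm11518 and Rpl27-ps3 (Rpl27 copies, 104 TPM each) were likewise pairs of identical sequence with equal values.

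A high share of unique words did not guarantee agreement between the methods. Of the 5 pseudogenes with the highest shares, 1 was at 0 in both libraries in the second quantifier, and the other 4 were Gm8424 (100%), Gm12439 (84.2%), BC023105 (70.7%) and Gm13050 (67.3%). Gm8424, whose best alignment to the splicing regulator gene Ptbp1 had an identity of only 71.4%, was at 9.96 and 15.2 TPM in the first quantifier and 12.4 and 19.7 in the second. Gm13050, a copy of the elongation factor gene Eef2, was at 33.5 and 34.4 TPM and then 26.5 and 29.1. BC023105, aligned to Gm4841, was at 14.6 and 19.1 TPM and then 13.1 and 17.8. In these the methods differed by less than 2-fold. Gm12439, aligned to the glyoxalase gene Glo1 over 50% of its length, was at 19.1 and 21.4 TPM and then 9.69 and 13.2. This too was less than 2-fold, with a log2 ratio of -0.83 on the means. Of the 33 pseudogenes with more than 20% unique words, 4 were under 1 TPM in the second quantifier, among them Gm5835 (Rpl4), Gm13573 (Rpl10a) and Rpl28-ps3 (Rpl28). These were picked after their values were seen.

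The 8 pseudogenes higher in the second quantifier were led by a copy of Gapdh, the glycolytic enzyme that is among the most abundant messengers of muscle. Gm7336 (chr7:51746647-51747878) was at 45.1 and 51.4 TPM in the first quantifier and at 1724 and 1976 TPM in the second, a log2 difference of 5.26. That was 32.3% of the second quantifier's TPM for all 184, and without it their share of gene TPM there fell from 0.578% to 0.391%. The libraries did not overlap between methods. Gapdh itself was at 4598 and 5143 TPM and then 4459 and 5053, while its counts went from 88807 and 86059 to 157993 and 148583. The other Gapdh copies among the 184, chosen for a high level in the first quantifier, went down. Gm12070 went from 92.9 and 59.5 TPM to 3.54 and 2.50, and Gm13394 from 45.2 and 21.1 to 2.88 and 3.83. Gm10359, an exact copy, went from 33.8 and 35.04 to 0. All 4 align best to 1 gene, which has 232 annotated processed pseudogenes. Some Gapdh copies outside the 184 were higher in the second quantifier. Gm12286 went from 1.35 and 1.31 TPM to 5.54 and 6.65, and Gm13464 from 2.13 and 2.01 to 5.90 and 6.21.

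Gm4459, the Ndufab1 copy shown with its single differing base, was at 12.4 and 2.45 TPM in the first quantifier and 77.2 and 103 in the second. Oaz1-ps, a copy of ornithine decarboxylase antizyme, was at 23.9 and 32.1 TPM and then 153 and 190, while Oaz1 went from 274 and 321 TPM to 162 and 213. The copy was higher and the coding gene lower by the second method, and the sum changed little: Oaz1 and its 2 processed pseudogenes together held 6106 and 6223 counts by the first method and 6181 and 6387 by the second. Gm5436, a copy of the ATP synthase subunit gene Atp5o, was at 7.62 and 7.44 TPM and then 22.5 and 28.5. Gm7332, aligned to the phosphatase inhibitor gene Ppp1r14b, was at 5.27 and 7.06 TPM and then 18.8 and 18.2.

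For most coding genes, the counts summed with all their annotated processed pseudogenes were similar by both methods. Counts were used, since the methods scale length differently. For 141 of 147 such groups the second quantifier's counts of both libraries lay within 1.5 times the first's (median log2 ratio 0.10, against 0.14 for protein-coding genes past the thresholds). For the members of each group alone, 61 of 147 lay within 1.5 times (median -0.75). The coding gene dominates many of these sums, which pulls the group ratio toward that of the gene. A group can stay within 1.5 times even where its copy went to 0. Gm10250, the Atp5h copy, went from 874 and 910 counts to 0, while the group's log2 ratio was -0.08. The count of 141 therefore says little about where the copies' counts went. The share of protein-coding genes within 1.5 times is not given here. The 6 groups beyond 1.5 times were those of Gapdh (log2 1.24), Gm10053 (-0.72), Hist2h2aa2 (-0.83), Rpl36 (-1.13), Rps12 (0.64) and Dynlt1c (0.63, where 2 other genes aligned equally well). In the groups of Gm10053, Hist2h2aa2 and Rps12, too, each member aligned equally well to 2 coding genes. The sums of these tied groups depend on which gene was taken. For Gapdh the group held 96014 and 91068 counts by the first method and 226861 and 215377 by the second, a rise made up of Gapdh's own counts as well as those of Gm7336.

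**Figure D3:**
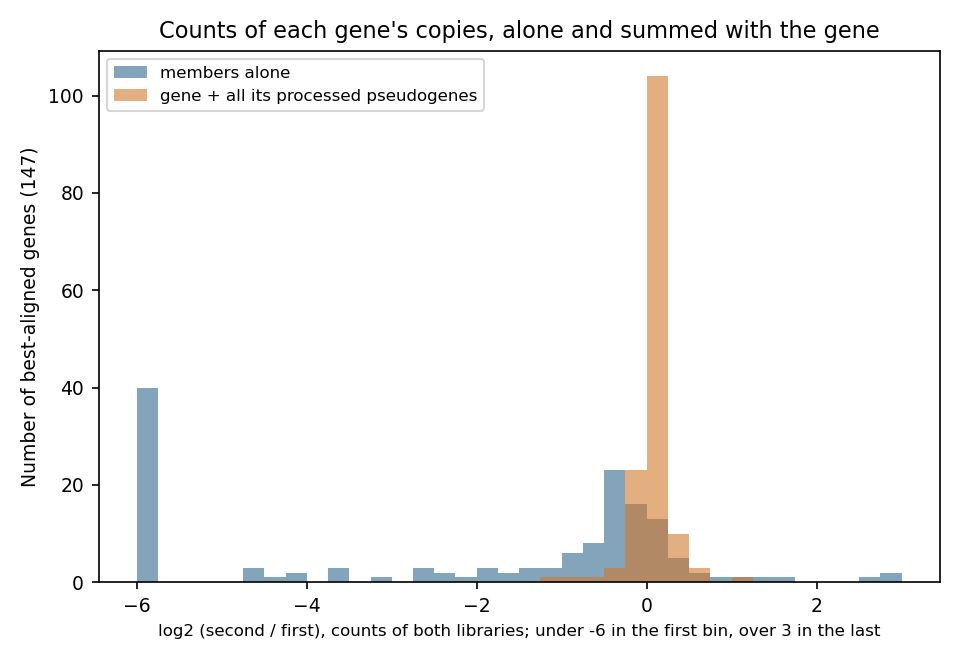
Histogram over the 147 best-aligned genes of the log2 ratio of second- to first-quantifier counts, summed over both libraries, for the members alone (blue) and for the coding gene with all its processed pseudogenes (orange); values under -6 are in the first bin and over 3 in the last. The orange values gather near 0, with 141 of 147 within 1.5 times, and the blue values spread down to the bin of those at or near 0.

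Compared with their coding genes, most of the pseudogenes were lower. In the first quantifier the median log2 ratio of pseudogene over best-aligned gene was -1.76 (-1.78 and -1.83 in libraries 1 and 2), with 24 of 184 above their gene on the mean and 21 in both libraries. In the second quantifier the median was -3.31 and 3 were above: BC023105, Gm9830 (Ramac) and Gm8424. Of the 24, 15 were exact copies, and in 22 the coding gene itself was higher in the second quantifier than in the first. The highest ratio belonged to Mrpl23-ps1 (chr2:74591330-74591909), a copy of a mitochondrial ribosomal protein gene. It was at 63.1 and 67.0 TPM in the first quantifier with Mrpl23 at 1.91 and 0.50. In the second the copy was at 0 and Mrpl23 at 65.2 and 72.8 TPM. The copy's level by the first method was close to the gene's by the second, and their joint counts were 968 and 870 in the first and 1056 and 962 in the second.

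Among the next 4 ratios, 3 copies were also above their gene by the first method and below it by the second. Dynlt1-ps1 is an exact copy of a dynein light chain gene and aligned equally well to 3 coding genes, of which Dynlt1c was taken, so its values beside that gene rest on this pick. It was at 5.71 and 14.9 TPM in the first quantifier against 0.97 and 0.12 TPM for Dynlt1c, and at 0 against 2.25 and 2.82 TPM in the second. Gm13092, aligned to Snrpf, a core spliceosomal protein gene, was at 23.4 and 21.01 TPM against 2.51 and 4.38, and at 0 and 3.25 TPM against 7.73 and 8.90 in the second. Gm11518 was at 102 and 105 TPM against 17.9 and 20.8 TPM for Rpl27, and at 42.3 and 49.8 against 113 and 119 in the second. BC023105 differed from these. It was above Gm4841, at 1.75 and 2.71 TPM in the first quantifier and 3.04 and 4.42 in the second, by both methods and in both libraries.

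By the function of the best-aligned gene, copies of cytosolic ribosomal protein genes were the largest family, with 69 pseudogenes from 45 genes. They made up 37.5% of the 184 and 25.4% of all processed pseudogenes with an alignment, and 46.2% of the members' TPM. Their summed level was 3611 and 3791 TPM in the first quantifier and 2110 and 2187 TPM in the second, and 30 of 69 were at least 2-fold lower. Copies of mitochondrial respiration and carrier genes were 10, with 1371 and 1450 TPM in the first quantifier and 400 and 385 TPM in the second. Gm12338 made up most of that fall: 5 were at least 2-fold lower and 3 at least 2-fold higher. The 6 copies of glycolysis genes went the other way as a sum, 282 and 235 TPM against 1751 and 2006 TPM, although 4 of the 6 were lower and Gm7336 alone made the rise.

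The 6 copies of translation factor genes, led by Tpt1-ps3, had no member 2-fold lower, with sums of 452 and 479 TPM and then 319 and 345 TPM. Copies of chromatin and RNA-binding protein genes numbered 13, of which 6 were lower. Gm15387, a copy of the chromatin protein gene Hmgb1, was at 74.0 and 75.9 TPM and then 0.193 and 0. Of 7 copies of ubiquitin, SUMO and proteasome genes 5 were lower, of 5 copies of chaperone and cyclophilin genes 1, and of 3 copies of cytoskeletal genes 2. Oaz1-ps stood alone in the list of iron storage, antioxidant and other metabolism genes. A further 64 copies belonged to none of these lists, 27 of them lower. The 3 copies of cytoskeletal genes, a list that includes contractile genes, made up 1.63% of the members. The share was 1.74% among all processed pseudogenes with an alignment, so their small number was near the background. Of these copies, Mylf-ps, aligned to the myosin light chain gene Myl1, was at 39.6 TPM on the mean, and Myl1 at 6588 TPM.

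**Figure D4:**
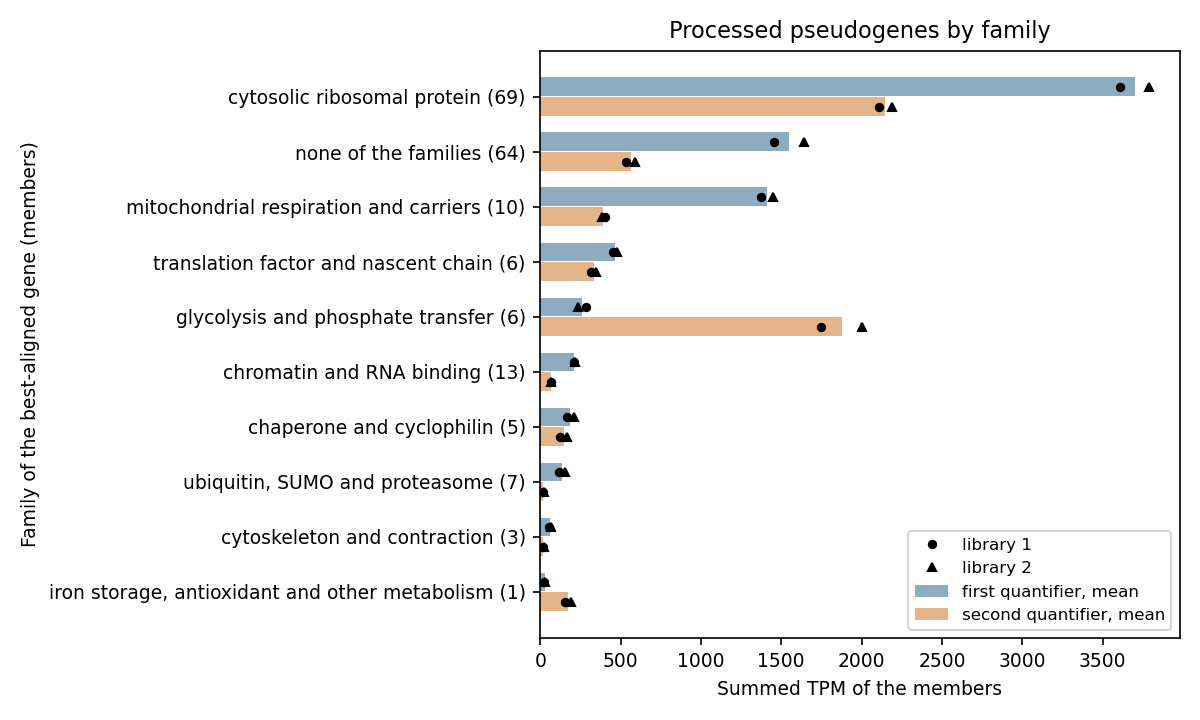
Summed TPM (horizontal axis) of the 184 pseudogenes by family of their best-aligned gene, with the number of pseudogenes in brackets, in the first (blue) and second (orange) quantifier; bars are means of 2 libraries and points single libraries. Ribosomal copies have the largest sum in both, and only the glycolysis and the iron storage and antioxidant families are higher in orange.

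Between the libraries the pseudogenes spread more widely than other genes, around a similar middle. With expected counts scaled by TMM, the log2 ratio of library 2 over library 1 had a median of -0.03 for the 184 and 0.01 for all genes past the thresholds. The median absolute log2 ratio was 0.18 and 0.09. Expected counts summed over the libraries had a median of 533 over the 184, and the part of counting error in this spread was not tested. A 2-fold or larger difference in either direction was found for 7 of the 184, while the share over all genes past the thresholds was 0.494%. The 7 comprise 5 higher in library 1, where that share was 0.374%, and 2 higher in library 2, where it was 0.120%. With 1 library on each side these are differences between libraries with no replicate, and the 95% intervals below are exact binomial intervals that cover counting error only.

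Gm4459 had 138 and 23.7 expected counts, a log2 ratio of -2.48 (interval -3.17 to -1.85), while Ndufab1 was nearly level at 0.16. By the second quantifier Gm4459 had 715 and 805 estimated counts, a log2 ratio of 0.21. The drop was thus seen by the first method only. Its posterior SD was 46.7% of the mean count. Gm10052, an exact copy of the RNA-binding protein gene Hnrnpa1, had 268 and 106 counts (log2 -1.30, interval -1.64 to -0.97) and 306 and 60.1 counts in the second quantifier, where the ratio was -2.31. Library 1 was higher by both methods. Hnrnpa1 was at -0.44 in the first quantifier.

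Gm8430, the Rps27a copy shown above, had 219 and 87.5 counts (log2 -1.29, interval -1.67 to -0.93) and 0 in the second quantifier. Gm13394, a Gapdh copy, had 1236 and 499 counts (log2 -1.27, interval -1.42 to -1.12), and 85.7 and 96.4 in the second quantifier, a ratio of 0.20. Dynlt1-ps1 went the other way, with 42.0 and 95.04 counts (log2 1.22, interval 0.68 to 1.78). Dynlt1c, 1 of the 3 genes it matched equally, was at 19.97 and 7.64 counts, a log2 ratio of -1.28. Gm9761 (Srsf3) at -1.15 and Rpl23a-ps3 (Rpl23a) at 1.20 complete the 7. All 7 had a posterior SD above 10% of the mean, and 3 had second-quantifier counts in both libraries. The SD ran from 17.8% (Gm8430) to 53.0% (Gm13394). The intervals do not cover this uncertainty, so the narrow interval of Gm13394 does not make its ratio the most certain. Summed with the coding gene and all its copies, 0 of the 147 groups were 2-fold apart, and the median absolute log2 ratio over groups was 0.08. The share of single genes past the thresholds that were 2-fold apart was itself only 0.494%. The coding gene also dominates many of these sums, so the group count says little about the copies.

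**Figure D5:**
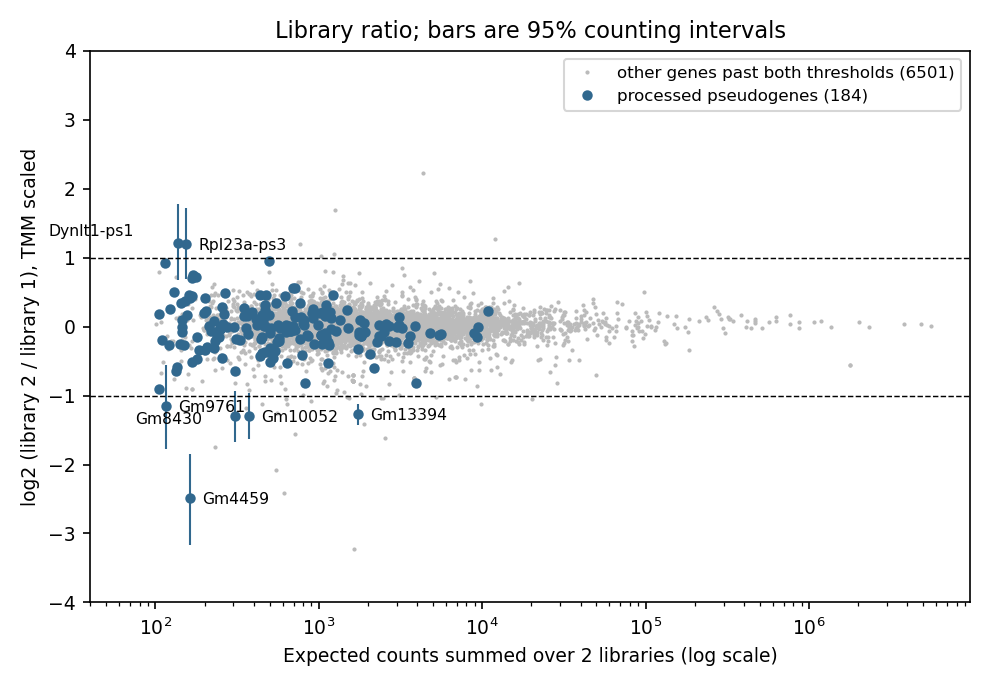
TMM-scaled log2 ratio of library 2 over library 1 (vertical) against expected counts summed over the libraries (horizontal, log scale) for the 184 pseudogenes (blue) and the 6501 other genes past the thresholds (grey); bars are 95% counting intervals of the 7 pseudogenes beyond the dashed 2-fold lines. The 7 have 116 to 1735 counts, and Gm4459 lies lowest.

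Few of the pseudogenes lay within another gene. On the same strand 28 of 184 (15.2%) overlapped an exon or intron of another annotated gene, against 11.4% of all processed pseudogenes, and 3 (1.63%) overlapped an exon, against 1.23%. Both shares were near the background. Of the 28 hosts (the highest where there were several), 16 were at 1 TPM or more, and no share over other genes is given here. In the first quantifier 23 of the 28 pseudogenes were above their host. The rule set a floor of 5 TPM there for the pseudogenes and none for the hosts, so this count is partly built in. Ndufb4c, at 197 TPM on the mean, lies within Mroh5, which was at 0 and 0.02 TPM, and Rpl36a-ps2, at 121 TPM, within Ddah1, at 0.78 and 0.65 TPM. Gm13509 and Gm11478 were among the 5 below their host: 11.7 TPM on the mean against 16.5 for Mbd5, and 8.00 TPM against 38.6 for Vmp1. Of the 28, 12 were at least 2-fold lower in the second quantifier than in the first, a share near the 43.5% of all 184. By the second quantifier Morf4l1-ps1 fell below its host, at 0.924 TPM on the mean against 6.15 for Lpp. Ndufb4c stayed above, at 47.1 TPM against 0 for Mroh5.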

How the data were processed

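The data were 2 libraries of 1 group. Per the deposited notes, the authors quantified reads against mm10 with GENCODE M21. The software was not given in the sources used here. For each library, the first quantifier's gene tables hold expected counts and TPM made by the authors from a transcriptome alignment, with posterior means and SDs of the counts. The second quantifier's transcript tables hold estimated counts and TPM made by the authors straight from reads, and were summed here per gene. The first table's effective length is the length less 100 bases and the second's is set by fragment length, so TPM of short genes differs by method, and sums of genes were taken in counts. Spike-ins and entries that name no annotated gene were left out.

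The members and gene families were chosen with earlier results of these data known. Genes named are the 12 highest, the 5 at each end of the method ratio, the 5 highest against their gene, the 5 furthest apart between libraries, the 5 with most unique words and the 3 on each side of the TPM threshold, and others chosen after their values were seen. Best-aligned genes came from BLAST+ 2.17.0 (E-value at most 1e-10). Unique words were counted over all annotated transcripts, and sequences come from the GENCODE M21 transcripts. Expected counts were rounded to whole numbers and scaled by TMM in edgeR 4.0.16, with size factors of DESeq2 1.42.0 as an alternative. The ratio and word scripts were tested on simulated data. With 1 group no test between groups was possible and no p-value is given. Other alternatives were pseudocounts, thresholds, word lengths and leaving out each library. A few results that the naming rule covers are not reported here.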

Additional observations from a re-analysis of the deposited data

How the results depend on the processing

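The count of 184 pseudogenes ranged from 155 to 157 when either library was left out, and was 97 with a threshold of 500 counts. Their share of gene TPM, 0.807%, ranged from 0.780% to 0.835% without either library, and was 0.288% of expected counts, 0.578% in the second quantifier and 1.54% without 7SL RNA and mitochondrial chromosome genes. The count at least 2-fold lower in the second quantifier, 80, ranged from 78 to 80 without either library and stayed within 1.5 times under all 8 alternatives run. The median log2 ratio of second over first, -0.60, ranged from -0.62 to -0.56 without either library, and was -0.81 from counts, -0.52 with a pseudocount of 1 and -0.87 at a TPM threshold of 10. The count above the best-aligned gene, 24, was 3 in the second quantifier and 6 among the 52 pseudogenes whose symbol names their gene, and ranged from 24 to 25 without either library. The median log2 ratio to that gene, -1.76, was -3.31 in the second quantifier and -1.56 at a TPM threshold of 10, and ranged from -1.83 to -1.78 without either library. The median share of unique words, 6.74%, was 4.28% for 21-base words, 17.6% for 75-base words and 4.95% at a TPM threshold of 10. The count 2-fold apart between libraries, 7, was 11 in the second quantifier (pseudogenes with counts in both libraries), 253 among all processed pseudogenes with at least 1 count in each library, 1 (Gm13394) with at least 500 counts and 19 at a fold of 1.5. The share of 0.494% over all genes holds for the main setting only. No such share is given for these alternatives, so their counts cannot be read against a background. The median library ratio, -0.03, was 0.14 with deposited TPM, where the median over all genes past the thresholds shifted to 0.17, and 0.0397 without the count filter. The count inside another gene, 28, was 68 on either strand and 3 for exons only. The cause of these shifts was not tested. Low counts limit the precision of the pseudogenes near 100 counts most. No paired analysis was possible because the libraries form 1 group.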

Other observations

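The rule covers 1 of several annotated pseudogene types. A further 18 genes of the type transcribed processed pseudogene passed the same thresholds, with a summed first-quantifier TPM of 1846 and a second-quantifier TPM of 1023. Gm1821 was the highest, at 289 TPM on the mean by the first quantifier and 64.6 TPM by the second, and 10 of the 18 were at least 2-fold lower in the second. The 11 unprocessed pseudogenes past the thresholds summed to 44128 TPM in the first quantifier and 18752 in the second, led by Gm28661 at 14363 and 10859 TPM.

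The second quantifier also passed 15 processed pseudogenes that the first did not. Gm19220 was listed at 0 counts in both libraries by the first quantifier and had 68629 and 20465 estimated counts by the second, or 3090 and 1092 TPM, although 99.4% of its 31-base words are found in no other annotated gene. Rpl36a-ps3 (Rpl36al) was at 0 in the first and at 71.9 and 69.9 TPM in the second. Rpl17-ps3 (Rpl17) was at 0.84 and 0 TPM in the first and at 37.6 and 40.8 TPM in the second. These were chosen after their values were seen, and the cause was not tested.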
